A study of Homo sapiens with 6 samples.

Results

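TPPP3, TPPP, 7 tubulin genes and the tubulin-sequestering gene STMN1 were followed in SW872 cells, an established human liposarcoma line, with and without Apatinib. The 10 genes were selected on the Apatinib against control values of these same samples, so their differences are given as a description and without p-values. They occupied 11 rows of the 57773 gene rows in the deposited count table, because TUBB3 is listed under 2 identifiers. Of these, 10 rows were among the 16290 rows with enough counts to be tested, and the remaining TUBB3 row held no read in any sample.

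Apatinib is a small-molecule inhibitor of the tyrosine kinase VEGFR2. RNA sequencing was performed on 3 samples of cells treated with 18 μM Apatinib for 24 h and on 3 control samples for which the labels give no treatment. Both groups were the same cell line grown in the same serum-containing RPMI-1640 medium, and a vehicle for the control cells is not named in the labels. The study's aims were the effect of Apatinib on liposarcoma cells, how it acts, and its combination with Epirubicin. RNA sequencing served there to look for genes that change with the drug.

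Microtubules are hollow polymers of alpha and beta tubulin, and each class is made from several genes whose products are called isotypes. The isotypes are nearly identical except at their acidic carboxyl-terminal tails, which reach out from the polymer and carry most of the modifications that motors and associated proteins read. TPPP proteins bind and bundle microtubules, and stathmin, the product of STMN1, holds free tubulin dimers and promotes the shortening of microtubules. In dividing cells the polymer forms the spindle, while in resting cells it serves as a track for transport.

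The coding ends of 5 tubulin genes are printed because they carry the tails, where the isotypes differ most. Each line gives the last 45 coding bases before the stop codon in the principal coding transcript of GENCODE release 29 (GRCh38), 5′ to 3′, with the last sense codon in capitals. All lie in the final coding exon of their gene, at chr2:219250355-219250399 on the minus strand for TUBA4A, chr6:3153866-3153910 on the minus strand for TUBB2A, chr6:3224754-3224798 on the minus strand for TUBB2B, chr16:89935757-89935801 on the plus strand for TUBB3 and chr9:137243509-137243553 on the plus strand for TUBB4B.
TUBA4A: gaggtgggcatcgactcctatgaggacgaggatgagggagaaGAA
TUBB2A: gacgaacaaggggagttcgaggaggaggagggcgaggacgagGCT
TUBB2B: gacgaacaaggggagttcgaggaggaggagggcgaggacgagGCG
TUBB3: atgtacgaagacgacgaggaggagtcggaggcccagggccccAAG
TUBB4B: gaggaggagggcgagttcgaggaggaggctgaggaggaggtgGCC

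The TUBA4A gene closes with GAA, a glutamate codon, and so its product lacks the terminal tyrosine that other alpha tubulins can lose and regain. Over the whole coding sequence, TUBA1A and TUBA1B differed at 38 of 1353 bases (97.2% identical). TUBB2A and TUBB2B differed at 24 of 1335 bases (98.2% identical), and over the printed end they differed in the last codon only. Reads from such pairs can be hard to assign, so their separate values are to be taken with caution. How the reads were assigned was not tested. TUBB2A and TUBB4B were 87.3% identical.

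Of the 10 genes, 9 had promoter entries in the RefSeq table (GRCh38.p14), and the 250 bases before the annotated start are printed for 3 of them. TPPP and TUBA1A had the largest increases among the genes with an entry, and TUBB4B is shown as an abundant tubulin gene whose mean was not higher with Apatinib. Capitals mark the motifs CCAAT and GGGCGG on either strand, whose reverse complements are ATTGG for the first and CCGCCC for the second. The windows lie at chr5:693353-693602 on the minus strand for TPPP, chr12:49189081-49189330 on the minus strand for TUBA1A and chr9:137241037-137241286 on the plus strand for TUBB4B.
TPPP: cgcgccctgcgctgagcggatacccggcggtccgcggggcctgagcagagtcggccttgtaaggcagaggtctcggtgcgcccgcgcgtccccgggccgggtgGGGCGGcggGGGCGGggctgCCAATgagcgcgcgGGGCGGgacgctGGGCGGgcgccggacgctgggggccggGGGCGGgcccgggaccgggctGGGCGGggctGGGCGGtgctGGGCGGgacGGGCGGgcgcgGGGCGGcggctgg
TUBA1A: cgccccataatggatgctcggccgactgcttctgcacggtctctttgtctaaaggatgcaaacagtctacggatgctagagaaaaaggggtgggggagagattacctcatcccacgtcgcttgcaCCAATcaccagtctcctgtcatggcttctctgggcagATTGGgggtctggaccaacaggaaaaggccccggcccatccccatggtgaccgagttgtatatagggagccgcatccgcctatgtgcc
TUBB4B: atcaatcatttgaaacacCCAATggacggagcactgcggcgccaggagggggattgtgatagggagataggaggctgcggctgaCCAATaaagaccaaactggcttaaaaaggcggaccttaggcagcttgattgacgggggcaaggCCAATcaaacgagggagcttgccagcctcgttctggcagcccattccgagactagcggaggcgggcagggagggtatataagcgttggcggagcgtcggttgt

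The TPPP window differed from the TUBA1A and TUBB4B windows, which were alike in G and C content and in lacking GGGCGG. The TPPP window was 84.0% G and C and held GGGCGG 10 times and CCAAT once. The TUBA1A window was 56.4% G and C and held CCAAT 2 times and GGGCGG 0 times. The TUBB4B window was 56.8% G and C and held CCAAT 3 times and GGGCGG 0 times. The 9 genes had 13 windows, since some have several annotated starts. CCAAT occurred in 7 of these 13 windows and in 32.0% of all 35116 promoter windows of that length, and GGGCGG in 8 of the 13 and in 42.6% of all windows. The motif TTTGAA was found in TUBB4B alone and in 13.3% of all windows. The motif CACGTG was found in STMN1 alone and in 6.34% of all windows, and the motif TGACGTCA in TUBB2A alone and in 1.65%. All motifs were searched on both strands, matches that overlap were counted separately, and a match is a run of letters that was not tested as a binding site.

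The libraries held 17043314 to 22067558 counts each. Control replicates 1 and 2 resembled one another far more than the remaining same-group pairs did, with a mean chi-square of 2.27 per gene against 18.2 to 44.5 for the rest, where 1 would be sampling noise. Pairs across the groups ran from 26.5 (Apatinib replicate 3 with control replicate 3) to 78.4, so that this pair was closer than Apatinib replicate 2 was to either of the other treated samples (44.5 and 34.3). Control replicates 1 and 2 differed by more than sampling noise, which does not show that they were separate cultures. They were counted as 2 samples because the authors state biological replicates. Of 6 mesenchymal markers, VIM at 776 to 1081 CPM (counts per 1000000 counts of the library) and FN1 at 3213 to 4826 CPM were abundant, and the sum of the 6 was 4948 to 5780 CPM with Apatinib and 4097 to 4212 CPM in controls. COL3A1 stood at 7.56 to 11.9 CPM with Apatinib and 3.58 to 4.67 CPM in controls, and THY1 at 3.23 to 7.10 CPM. Of 6 mature adipocyte markers, CEBPA, FABP4 and ADIPOQ held no read, and PPARG was present at 49.97 to 64.2 CPM. LPL, a lipase of adipocytes, was at 14.3 to 23.5 CPM with Apatinib and 8.57 to 11.3 CPM in controls, and PLIN1 was at 0.808 to 1.69 CPM. Since TPPP genes and several tubulin isotypes are also known from neurons and ciliated cells, markers of those cells were read as well. Of 6 neuronal markers, ELAVL4 and GAP43 held no read and RBFOX3 and NEFM at most 3, while SNAP25 stood at 27.3 to 49.6 CPM in the Apatinib samples and 32.2 to 45.3 CPM in the controls. FOXJ1, which defines multiciliated cells, held no read, and the summed level of 6 multiciliated markers was 11.98 to 15.3 CPM with Apatinib and 13.7 to 22.1 CPM in controls. Leukocyte markers reached at most 2 counts. Of the 33 markers read, 17 were tested across all genes, and by the call rule given below COL3A1, LPL and VWF were higher and CCDC39 and CDH5 lower, a background of 11.5% of all genes being called. When each sample was left out in turn, COL3A1 was called in 5 of 6 analyses, LPL in 4, and VWF, CCDC39 and CDH5 in 2 each. Their part in the results was not tested. In RNA from whole cultures, fewer cells of one kind and less RNA per cell cannot be told apart.

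TPPP3, a microtubule-binding protein of the TPPP family, showed the largest difference among the 10 genes. Reads numbered 302, 226 and 220 in the treated samples (replicates 1, 2 and 3, the order used throughout) against 38, 54 and 81 in the untreated ones. All 3 treated samples lay well above all 3 controls, the lowest of them at 12.6 CPM and the highest control at 3.71 CPM. Scaled to library size, the level was 14.3 ± 2.83 CPM (SD, n = 3) with Apatinib and 2.96 ± 0.759 CPM (SD, n = 3) in controls. The difference was 2.26 on the log2 scale (SE 0.228), a fold change of 4.79. It ranged from 2.09 to 2.47 when each sample was left out in turn. In the annotation, exons of TPPP3 overlap the small RNA pseudogene RNU1-123P on the same strand, and its share in the counts was not tested.

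TPPP, the founding member of the family, followed TPPP3 closely. The levels were 23.6, 21.7 and 17.2 CPM in the Apatinib samples and 6.29, 5.44 and 7.28 CPM in the controls. Again the groups did not overlap. The means were 20.8 ± 3.25 CPM and 6.34 ± 0.921 CPM (SD, n = 3 each), and the difference was 1.71 on the log2 scale (SE 0.180) or 3.27-fold, with a range of 1.61 to 1.83 when 1 sample was left out. The exons of TPPP overlap those of CEP72 on the other strand, and whether the counting used strand is not given in the sources used here.

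**Figure D1:**
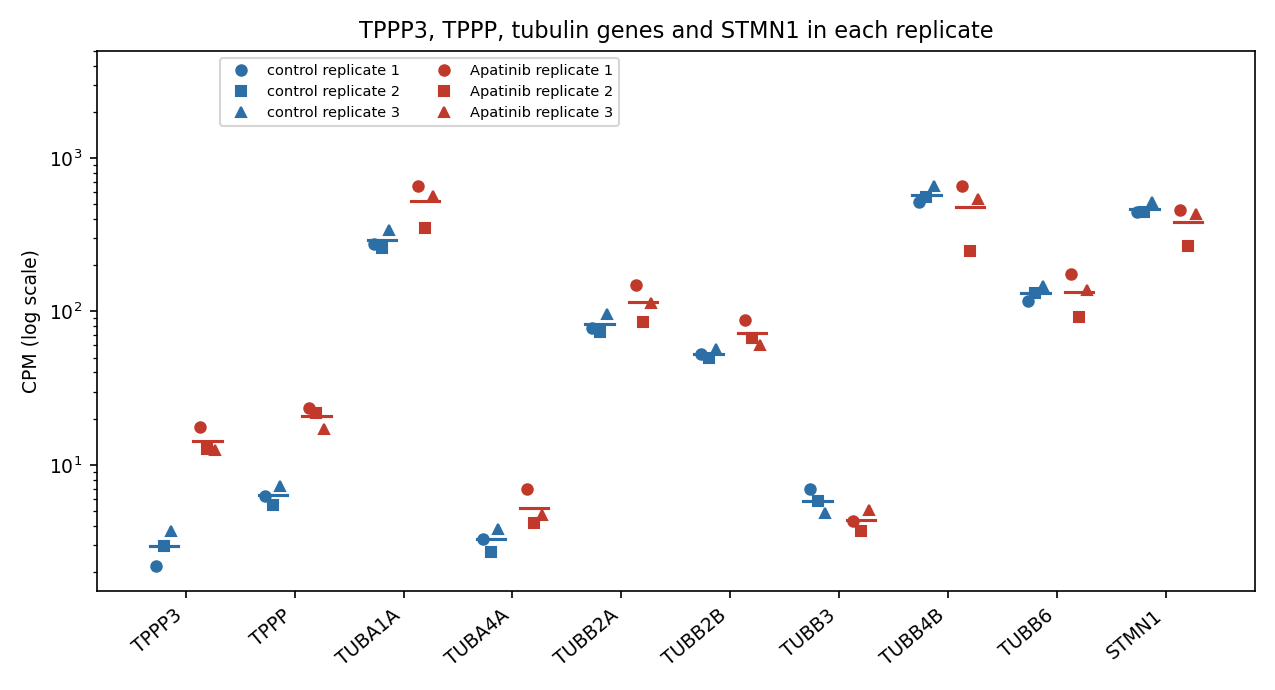
Level of each gene in each replicate, in CPM on a log axis, with controls in blue and Apatinib samples in red. Symbols mark replicates 1 to 3 and horizontal bars the mean of 3. The 3 Apatinib samples sit above all 3 controls for TPPP3, TPPP, TUBA1A, TUBA4A and TUBB2B. Apatinib replicate 2 is the lowest sample for TUBB3, TUBB4B, TUBB6 and STMN1.

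Among the alpha tubulin genes, TUBA1A, the isotype best known from developing neurons, was higher with Apatinib. Its levels were 655, 350 and 565 CPM in the Apatinib samples and 276, 261 and 337 CPM in the controls. The groups did not overlap, but Apatinib replicate 2 lay just above control replicate 3. The difference was 0.84 on the log2 scale (SE 0.203) or 1.80-fold, from 523 ± 157 CPM against 291 ± 40.5 CPM (SD, n = 3 each), and it ranged from 0.65 to 1.07 when 1 sample was left out. TUBA1A passed the call rule given in the comparison of all genes with all 6 samples, and no longer passed it without Apatinib replicate 1, Apatinib replicate 3, control replicate 1 or control replicate 2.

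TUBA4A, the isotype without a terminal tyrosine codon, was found at a low level. It measured 6.92, 4.18 and 4.69 CPM with Apatinib and 3.29, 2.69 and 3.85 CPM in controls. The treated samples were all above the controls by a small distance, and the difference was 0.68 on the log2 scale (SE 0.245), or 0.43 without Apatinib replicate 1. The exons of TUBA1A overlap those of TUBA1C, and the exons of TUBA4A overlap those of STK16 and TUBA4B, on the opposite strand in each case.

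Of the beta tubulin genes, TUBB2A and TUBB2B, which lie close together on chromosome 6, had similar differences. TUBB2A stood at 149, 84.8 and 113 CPM with Apatinib and at 77.8, 73.9 and 96.4 CPM in controls. The groups overlapped, since Apatinib replicate 2 was below control replicate 3. The difference was 0.48 on the log2 scale (SE 0.189), or 0.26 without Apatinib replicate 1. TUBB2B stood at 87.8, 67.1 and 60.8 CPM with Apatinib and at 53.1, 49.5 and 56.6 CPM in controls, with no overlap and a difference of 0.44 on the log2 scale (SE 0.149), or 0.27 without Apatinib replicate 1. Given their near identity, the pair may not be independent measurements. Exons of TUBB2B overlap those of PSMG4 on the opposite strand.

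TUBB4B, a widely expressed beta tubulin, varied most between treated samples. Its levels were 654, 247 and 538 CPM with Apatinib and 513, 558 and 660 CPM in controls. Apatinib replicate 2 stood far below every other sample, and the 2 other treated samples lay within the range of the controls. The difference was -0.27 on the log2 scale (SE 0.271), and it became 0.05 without Apatinib replicate 2, -0.55 without Apatinib replicate 1 and -0.16 without control replicate 3. TUBB6, a beta tubulin of many tissues, stood at 176, 91.5 and 137 CPM with Apatinib and 117, 131 and 146 CPM in controls. Apatinib replicate 1 was above all controls and Apatinib replicate 2 below them all, the difference was 0.04 on the log2 scale (SE 0.199), and its sign changed in 4 of 14 alternative analyses, with a range of -0.20 to 0.25 when 1 sample was left out. Exons of TUBB4B overlap those of FAM166A, and exons of TUBB6 those of AFG3L2, on the opposite strand in each case.

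TUBB3, the beta tubulin used as a marker of neurons, gave different pictures in counts and in FPKM (fragments per kilobase of transcript, scaled to library size). It had 74, 66 and 89 reads in the treated samples against 120, 105 and 106 in the untreated ones, or 4.30, 3.73 and 5.09 CPM against 6.93, 5.77 and 4.86 CPM. The groups overlapped in CPM and the difference was -0.42 on the log2 scale (SE 0.211). In the authors' FPKM the gene was among the abundant ones, at 88.6, 48.4 and 76.8 with Apatinib and 69.2, 72.6 and 76.9 in controls, and the difference was -0.08 on the log2 scale of FPKM + 1. The ratio of CPM, here scaled to the total count only, to FPKM is a length in kilobases. For TUBB3 it was 0.0729 kb, or 3.69% of its longest annotated transcript of 1.98 kb, and only 0.413% of 13332 expressed genes had a lower ratio. TPPP3 by comparison gave 1.72 kb for a longest transcript of 1.74 kb.

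The count and the FPKM of TUBB3 thus do not describe the same amount of signal, and which of them is nearer to the transcript's level was not tested. Exons of MC1R overlap TUBB3 on the same strand in the annotation, and the MC1R row held 147, 182 and 170 counts with Apatinib and 241, 269 and 268 in controls. The second TUBB3 row held no counts, yet was listed at an FPKM of 0 to 8.75. TUBA1B and TUBA1C, which are no part of the 10 genes, also had low ratios, of 0.232 and 0.696 kb, and their counts carry the same limit. The reason for the low ratios was not tested.

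**Figure D2:**
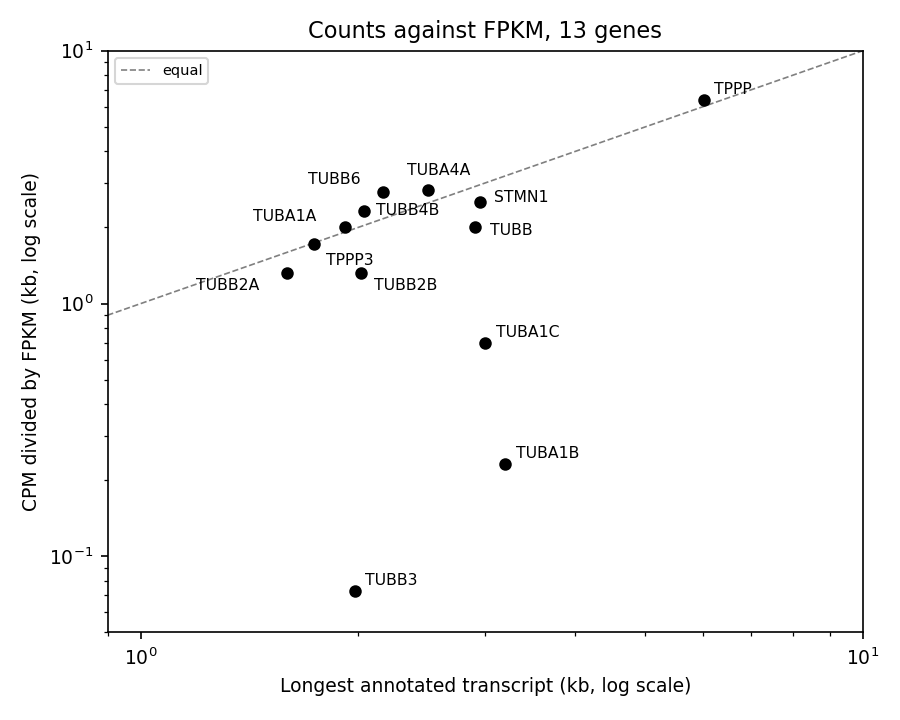
Ratio of CPM (scaled to the total count) to FPKM, in kilobases, against the longest annotated transcript of each gene, in kilobases, both on log axes, with 1 point per gene and a dashed line where they are equal. TPPP3, TPPP and TUBA1A lie near the line, and TUBB3 lies far below it at 0.0729 kb.

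STMN1, the tubulin-sequestering protein, was highly expressed and not higher with Apatinib. It was measured at 461, 265 and 431 CPM with Apatinib and at 447, 445 and 514 CPM in controls. The groups overlapped, Apatinib replicate 2 was the lowest of all samples, and the difference was -0.28 on the log2 scale (SE 0.184). It was -0.07 without Apatinib replicate 2 and -0.43 without Apatinib replicate 1. Exons of STMN1 overlap MIR3917 on the same strand.

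**Figure D3:**
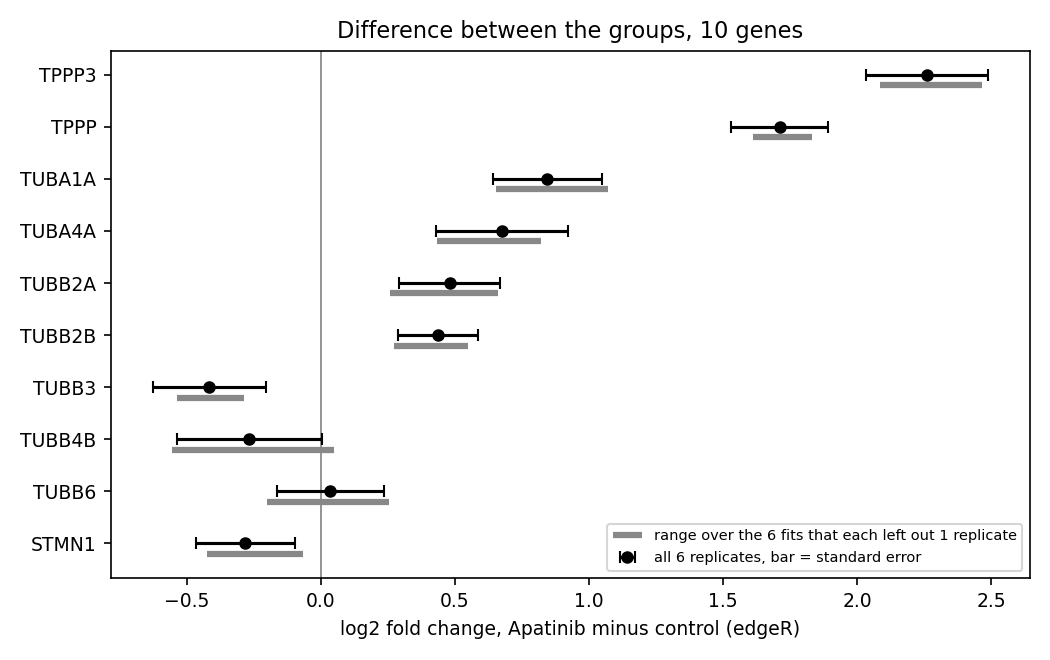
Difference of each gene between Apatinib and control on the log2 scale, from edgeR, with the standard error as a black bar and the range over the 6 analyses that each left out 1 sample as a grey bar. TPPP3 at 2.26 and TPPP at 1.71 are set apart from the tubulin genes, whose values run from -0.42 to 0.84.

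Across all genes, a gene was called when edgeR's quasi-likelihood test gave a Benjamini-Hochberg adjusted p under 0.05 and the log2 difference was over 0.5 in size. Of the 10 rows, 3 were called (TPPP3, TPPP and TUBA1A), all higher with Apatinib. The background was 11.5% of the 16290 rows tested in either direction and 5.97% higher with Apatinib. Since the genes were chosen by this comparison, nothing is read from the count. The groups did not overlap for 5 of the 10, all higher, where 33.2% of all genes tested had groups that did not overlap in either direction. The median difference of the 10 was 0.46 on the log2 scale, or 0.26 without Apatinib replicate 1, and that of all genes tested was 0.003.

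The same treated sample stood low for most of the tubulin genes. On the log2 CPM scale, Apatinib replicate 2 differed from the mean of Apatinib replicates 1 and 3 by -1.26 for TUBB4B, -0.80 for TUBA1A, -0.76 for TUBB6, -0.75 for STMN1 and -0.61 for TUBB2A. The gap was smaller for TUBA4A (-0.44), TUBB3 (-0.32), TPPP3 (-0.22), TUBB2B (-0.12) and TPPP (0.10). Over all genes tested the median of this gap was 0.005 and the lowest 5% of genes were below -0.67, so that TUBB4B, TUBA1A, TUBB6 and STMN1 were within the lowest 5%. All 6 genes of proliferating cells that were read for comparison were also low in this sample, by -0.64 for CCNB1 to -1.63 for PCNA. Among them, MKI67 fell by 1.19, TOP2A fell by 1.07 and CDK1 fell by 1.02 on the log2 scale between the groups (edgeR, adjusted p = 0.011, 0.022 and 0.014). The other 3 were not called, at -0.32 for CCNB1, -0.67 for PCNA and -0.54 for MCM2. When each sample was left out in turn, MKI67 was called in 6 of 6 analyses, CDK1 in 4 and TOP2A in 3, both being lost without control replicate 1 or control replicate 2 and TOP2A also without Apatinib replicate 1. The part of cell division in the tubulin and STMN1 values was not tested.

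Levels of different genes were compared per length, in FPKM. In controls the order was TUBB4B (245 ± 25.3), STMN1 (182 ± 4.56), TUBA1A (161 ± 29.5), TUBB3 (72.9 ± 3.87), TUBB2A (64.1 ± 5.21), TUBB6 (46.1 ± 4.03), TUBB2B (39.7 ± 2.11), TPPP3 (1.65 ± 0.306), TUBA4A (1.22 ± 0.293) and TPPP (1.02 ± 0.135), each as FPKM mean and SD of n = 3. Neighbours in this order that differed by no more than the sum of their SDs were STMN1 and TUBA1A, TUBB3 and TUBB2A, TPPP3 and TUBA4A, and TUBA4A and TPPP, and the other neighbours lay farther apart. With Apatinib, TUBA1A had the highest mean at 256 ± 67.7 FPKM (SD, n = 3), above TUBB4B at 204 ± 83.7 FPKM (SD, n = 3), and their spreads overlapped. TPPP3 reached 8.53 ± 1.504 FPKM and TPPP 3.15 ± 0.484 FPKM (SD, n = 3 each). Both TPPP genes therefore stayed far below the abundant tubulins per length in either group. The places of TUBB3 and of TUBB2A above TUBB6 in this order rest on FPKM alone. When CPM, scaled to the total count, was instead divided by the longest annotated transcript, TUBB3 came to 2.97 ± 0.567 CPM per kb in controls (SD, n = 3), below TUBB6 at 60.8, TUBB2A at 51.9 and TUBB2B at 26.3 CPM per kb and above TPPP3 at 1.70 CPM per kb. On that scale TUBB6 and TUBB2A also changed places, and their distance was within the sum of their SDs of 5.79 and 6.97 CPM per kb.

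The make-up of each tubulin class was read as each gene's share of the summed FPKM of the class in a sample. These shares carry the limit given above for TUBA1B, TUBA1C and TUBB3, whose FPKM did not match their counts. The sum of the alpha genes was 1916, 1077 and 1775 FPKM with Apatinib and 1585, 1569 and 1745 FPKM in controls, and that of the beta genes 1451, 798 and 1277 FPKM against 1167, 1165 and 1347 FPKM. Both sums were lowest in Apatinib replicate 2 and overlapped between groups. TUBA1A made up 16.2%, 16.7% and 15.8% of the alpha sum with Apatinib and 12.04%, 8.40% and 9.26% in controls. Its share was thus nearly equal in the 3 treated samples, although its level in CPM was not. The means were 16.2% ± 0.489 and 9.90% ± 1.90 (SD, n = 3 each), 6.31 percentage points apart. From counts per kilobase of the longest transcript, an alternative chosen after seeing the data, the TUBA1A share was 64.3% ± 0.467 with Apatinib and 47.5% ± 1.94 in controls (SD, n = 3 each), also higher without overlap, so that the direction held and the size of the share did not.

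TUBA1B took 61.9% ± 0.910 of the alpha sum with Apatinib and 70.0% ± 1.39 in controls (SD, n = 3 each), lower without overlap. It was the most abundant alpha isotype in FPKM only, since from counts per kilobase of the longest transcript it took 16.7% and 26.2%, below TUBA1A in both groups. TUBA4A was a trace component, at 0.120% against 0.0742% in FPKM, and its groups overlapped in the shares from counts. In the beta class, TUBB2A had a share of 7.61% ± 1.11 with Apatinib and 5.23% ± 0.0887 in controls, and TUBB2B 4.87% ± 1.19 and 3.24% ± 0.108 (SD, n = 3 each), and neither overlapped between groups. Apatinib replicate 2 had the highest TUBB2B share, 6.21% against 4.44% and 3.95%, and the difference of 1.62 percentage points was 0.952 without it. TUBB6 had 4.32% ± 0.173 with Apatinib and 3.76% ± 0.114 in controls, without overlap in FPKM and with overlap in the shares from counts. TUBB4B was lower, at 16.8% ± 2.72 against 19.97% ± 0.600, with Apatinib replicate 2 at 13.7% and the other 2 treated samples at 18.5% and 18.3%, and its difference of -3.15 percentage points was -1.58 without that sample. The share of TUBB3 was 6.12% ± 0.0531 with Apatinib and 6.17% ± 0.222 in controls, and these overlapped. Its share was 5.41% against 6.48% when counts were divided by the length that the FPKM imply, and 0.261% against 0.313% when they were divided by the longest transcript. Shares add up to a whole, so that a higher share of one gene lowers the others, and no test was made on them.

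**Figure D4:**
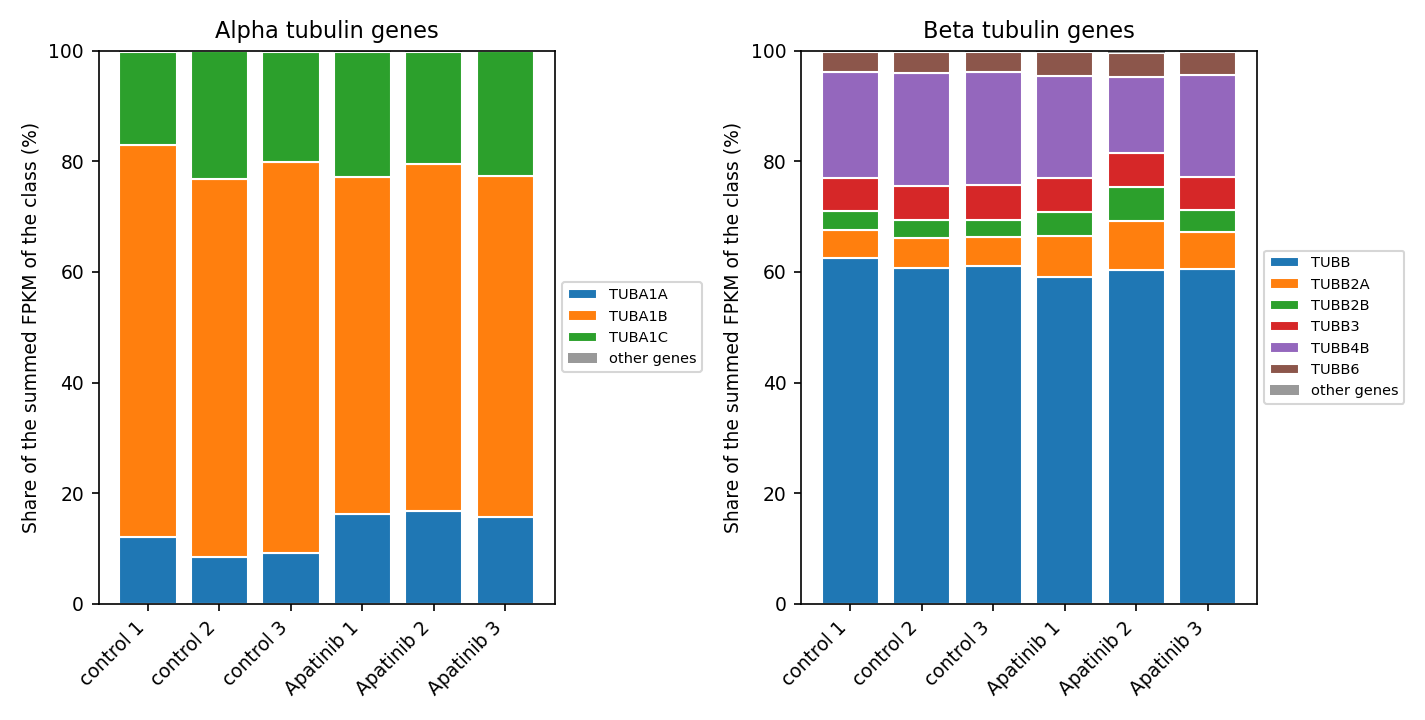
Share of each gene in the summed authors' FPKM of the alpha (left) and beta (right) tubulin genes, in percent, as stacked bars for each control and Apatinib sample. The TUBA1A segment is 15.8% to 16.7% in the Apatinib samples and 8.40% to 12.04% in the controls.

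The abundant tubulin genes outside the 10 were not called. In the test across all genes, TUBA1B differed by -0.25 on the log2 scale (SE 0.203, edgeR adjusted p = 0.44), TUBA1C by -0.06 (adjusted p = 0.87) and TUBB by -0.14 (adjusted p = 0.70). TUBB4A, a beta isotype of the nervous system at a low level here, was higher by 0.80 (edgeR, adjusted p = 0.033), and delta tubulin, TUBD1, was lower (log2 difference -0.85, edgeR adjusted p = 0.017).

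To set the 10 genes among the rest of the microtubule system, 134 further gene rows were read in 5 lists, of which 120 were tested. The calls numbered 24, against a background of 11.5% of all genes tested, with 12 higher (background 5.97%) and 12 lower (background 5.48%), and the median difference was -0.10 on the log2 scale. The calls depended on single samples. Without control replicate 1 only MAPT and DCLK1 were called, without control replicate 2 only MAPT and NAV3, and MAPT alone was called in all 6 analyses that left out a sample. With a limit of 20 genes by smallest p, the named calls had edgeR adjusted p from 0.0077 to 0.041.

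Of 30 proteins that bind along the lattice or sever it, 6 were called higher and 3 lower, where 5.97% of all genes were called higher and 5.48% lower. MAPT, which encodes tau, was at 21.8, 16.3 and 15.5 CPM with Apatinib and 8.66, 9.07 and 9.21 CPM in controls, with no overlap and a difference of 0.99 on the log2 scale (SE 0.170, edgeR adjusted p = 0.0077). DCLK1, a doublecortin-like kinase, was higher by 1.16, MAP1LC3A, a light chain also used in autophagy, by 0.69 and EML2 by 0.67. The lower calls were the severing-enzyme relative FIGNL1 at -0.97 and a pair of spindle proteins, NUSAP1 at -0.90 and PRC1 at -0.54.

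Of 38 genes of microtubule ends and nucleation, 4 were called higher and 6 lower, against the same 5.97% and 5.48% of all genes. NAV3, a protein of growing plus ends, was higher by 1.11, and the plus-end linkers CLIP2 and CLIP4 by 0.66 and 0.55 on the log2 scale. HAUS6 at -0.90 and HAUS3 at -0.69, subunits of the augmin complex that nucleates microtubules within the spindle, were lower. So were the gamma-tubulin ring subunit TUBGCP5 at -0.52, GTSE1 at -0.73 and the cytoskeletal linker DST at -0.75. The groups of DST overlapped, with Apatinib replicate 3 at 379 CPM and control replicate 3 at 352 CPM. Of 22 folding genes 0 were called higher and 2 lower, the prefoldin subunit VBP1 at -0.56 and the chaperonin subunit CCT6A at -0.53, which is 9.09% of the list against 11.5% of all genes. Of 19 tubulin-modifying genes 1 was called, TTLL1, a glutamylase subunit, which was higher by 1.04, or 5.26% of the list against the same 11.5%.

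**Figure D5:**
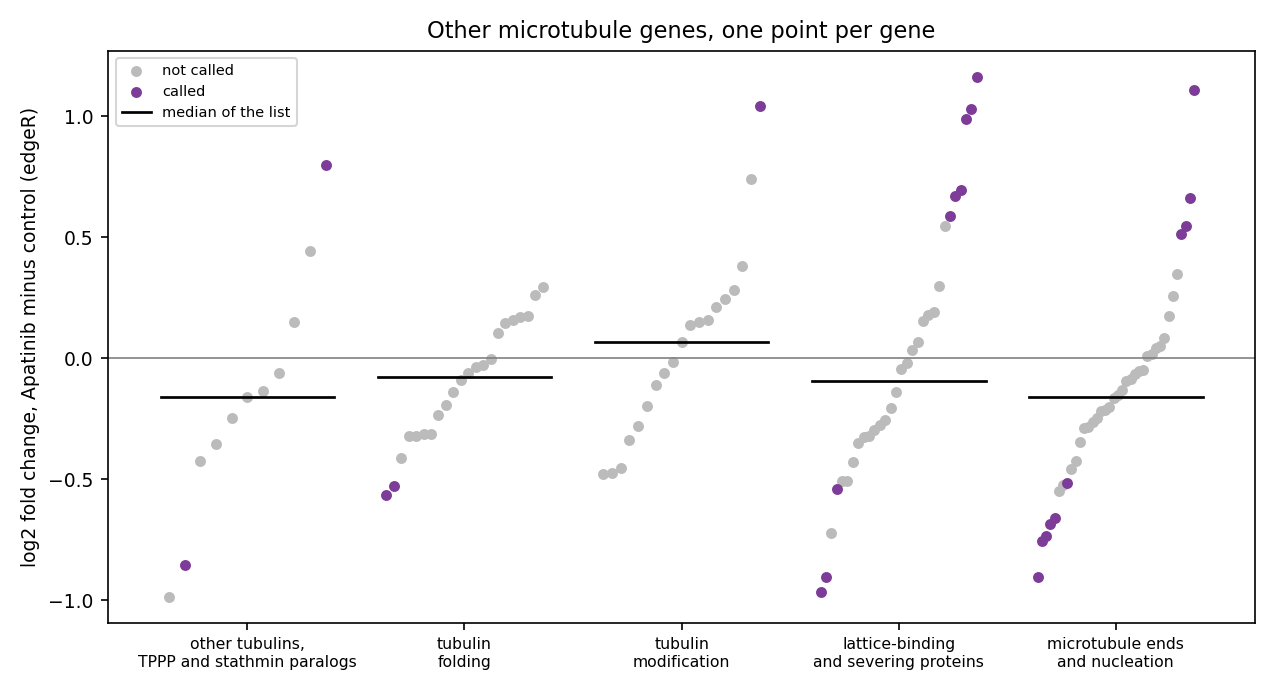
Difference between Apatinib and control on the log2 scale for the 120 tested microtubule genes outside the 10, in 5 lists, with 1 point per gene in rising order. Purple points are the 24 called genes and black lines the list medians, which lie near 0, while called genes occur at both ends of the lattice-binding and ends lists.

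Among all 16289 other genes tested, those whose log2 CPM over the 6 samples was most like that of TPPP3 were NLRP1 (Pearson r = 0.999), ANO7P1 (0.998), PRPF40B (0.997), SPATA20 (0.997) and BAI2 (0.997). TPPP had r = 0.979 and ranked 156, while TUBA1A had r = 0.862 and ranked 1774. The 6 points are the same libraries for every gene and form 2 groups, so that r includes the group difference, and it is given as a description.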

How the data were processed

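RNA of 6 SW872 samples was sequenced in one study, 3 per group, and the authors state biological replicates. The submitters' processing notes name CASAVA, STAR 2.7.1a and hg19, and the counting program is not given in the sources used here. The authors deposited whole-number counts per gene in 1 table for all samples, and an FPKM table per sample. In the FPKM table of Apatinib replicate 1, 1 column headed with a control's label was not used. The 57773 rows were filtered with edgeR's filterByExpr and tested with edgeR 4.0.16 quasi-likelihood fits on TMM-normalised counts (R 4.3.3), with group as the only term and Benjamini-Hochberg adjustment over 16290 rows. CPM are counts scaled by TMM library size, and log2 CPM used a prior count of 2. FPKM gave levels between genes and isotype shares, with counts over the longest annotated transcript as an alternative chosen after seeing the data, and FPKM fits used limma 3.58.1 on log2(FPKM + 1) or log2(FPKM + 0.1) with a mean FPKM over 0.5. DESeq2 1.42.0, other filters and scaling, a replicate block, summed controls 1 and 2, and leaving out each sample were alternatives. The fit was tested on simulated counts.

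The 10 genes, the 5 microtubule lists and the markers were chosen with earlier results of these data known. Named beside the 10 were the 20 called list genes with the smallest p, TUBA1B, TUBA1C and TUBB, and the 5 genes most like TPPP3. The biological coefficient of variation was 0.149. Sequences came from RefSeq (GRCh38.p14) and GENCODE release 29, whose build differs from that of the files, and no coordinates of the files were used.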

Additional observations from a re-analysis of the deposited data

How the results depend on the processing

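The calls of TPPP3 and TPPP held in all 14 alternative analyses, and TUBA1A was called in 7 of 14. It was not called with control replicates 1 and 2 summed, nor in the fits on FPKM. Of the other 7 genes, TUBA4A was called in 1 of 14 (no low-count filter), TUBB2A in 1 of 14 (without Apatinib replicate 2) and TUBB2B in 1 of 14 (without Apatinib replicate 3). The sign changed for TUBB4B in 1 and for TUBB6 in 4 of 14. Of 140 log2 differences of the 10 genes under the alternatives, 5 moved by more than the SD between replicates, all in the FPKM fits.

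Over all genes, 1866 were called. The number was 292 with control replicates 1 and 2 summed, 796 on log2(FPKM + 1) and 810 on log2(FPKM + 0.1), and 275 to 2594 when each sample was left out. It was 275 without control replicate 1, 300 without control replicate 2, 795 without Apatinib replicate 1 and 2594 without control replicate 3. Of the other microtubule genes 24 were called, against 1 with the controls summed, 9 on log2(FPKM + 1), 9 on log2(FPKM + 0.1) and 2 to 30 when each sample was left out (2 without control replicate 1, 2 without control replicate 2, 11 without Apatinib replicate 1, 14 without Apatinib replicate 2 and 30 without control replicate 3). The median of these genes ranged from -0.162 to -0.0863 when each sample was left out and was -0.081 with no low-count filter. The causes were not tested.

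Same-numbered samples did not deviate together (r = -0.26, 0.08 and -0.22). Differently numbered samples were not compared in this way, and whether the numbers pair the samples was not tested further. A replicate block gave 2215 calls over all genes, 3 among the 10 and 25 among the other microtubule genes. At 38 to 81 counts, control levels of TPPP3 carry the largest counting error of the 3 genes called among the 10.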
